A study of Mus musculus with 2 samples.

Results

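Immediate early genes are transcribed within minutes of a stimulus without new protein synthesis, and 10 of them, of 19608 genes in the data, are described here across kinds of Sox1-GFP+ cells from mouse tail and mouse brain: Fos, Fosb, Jun, Junb, Egr1, Ier2, Atf3, Dusp1, Zfp36 and Btg2. The genes were chosen by name, and the kinds of cell by a marker gene each. Both groups carry the Sox1-GFP+ genotype, in which GFP reports the neuroepithelial gene Sox1, and both were dissociated with trypsin, sorted for GFP by FACS and captured with the BD Rhapsody system, which counts each captured RNA molecule once. There was 1 library from postnatal tail and 1 from adult brain (ages from the study's methods), so tissue, age and library cannot be told apart. A sorted cell can be any GFP+ cell of the tissue. The study suspects that noise of the flow cytometer or unspecific sorting may lie behind its few ependymal, fibroblast and macrophage cells.

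Fos, FosB, Jun and JunB proteins pair to form the transcription factor AP-1, and Atf3 is a related leucine zipper protein. Egr1 is a zinc finger transcription factor, and Ier2 is a small nuclear protein. The other members are feedback genes: Dusp1 dephosphorylates MAP kinases, Zfp36 (tristetraprolin) directs the decay of AU-rich mRNAs and Btg2 restrains proliferation. In brain these genes are widely used as markers of recent activity, and enzymatic dissociation of tissue is itself a known inducer of them, so a level in sorted cells cannot be assigned to the animal or to the preparation.

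Promoter sequences from RefSeq (GRCm38.p6) were at hand for 8 of the 10 members, not for Egr1 and Ier2. Bases 250 to 51 before the start of each gene were searched on both strands. The cyclic AMP response element core TGACG was found in 5 of the 8 members and in 12.7% of all 32851 promoters. The full palindrome TGACGTCA, which contains that core on both strands, was found in 2 members, Dusp1 and Btg2, and in 0.828% of promoters. The AP-1 motif TGANTCA was in none of the 8 and in 5.57% of promoters. Fos, Dusp1 and Btg2 are shown because each has more than 1 core; capitals mark TGACG in either direction. The stretches are chr12:85473640-85473839 on the plus strand for Fos, chr17:26508523-26508722 on the minus strand for Dusp1 and chr1:134079206-134079405 on the minus strand for Btg2, the first and last of them upstream of the gene and that of Dusp1 inside a longer annotated gene model but outside its exons.
Fos: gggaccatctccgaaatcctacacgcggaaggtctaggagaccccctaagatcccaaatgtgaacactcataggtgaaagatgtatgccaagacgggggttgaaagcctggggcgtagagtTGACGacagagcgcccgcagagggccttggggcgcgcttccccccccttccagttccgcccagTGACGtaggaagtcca
Dusp1: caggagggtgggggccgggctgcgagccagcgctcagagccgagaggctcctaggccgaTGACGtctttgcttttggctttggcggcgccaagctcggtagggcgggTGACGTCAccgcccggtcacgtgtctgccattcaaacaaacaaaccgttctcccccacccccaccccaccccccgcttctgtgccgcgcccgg
Btg2: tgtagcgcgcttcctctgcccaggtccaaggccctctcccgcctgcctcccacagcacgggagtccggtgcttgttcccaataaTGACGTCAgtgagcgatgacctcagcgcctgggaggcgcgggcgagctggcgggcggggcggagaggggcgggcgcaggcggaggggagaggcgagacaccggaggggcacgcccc
The cores began 129 and 66 bases before the start in Fos, 191, 143 and 140 bases before it in Dusp1, and 166 and 163 bases before it in Btg2, where the overlapping pairs form the palindrome. These are matches of letters only.

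Barcodes were kept with a gene number above 200 and below 4000 and with less than 40% of their molecules from mitochondrial genes. By these limits 1964 tail cells and 7988 brain cells remained, with medians of 1282.5 and 696 molecules. The libraries shared 29 barcodes, 18 of them among the kept cells. A cell was given to a kind when it held at least 2 molecules of the marker, and Slc1a3 and Igfbp5, which are expressed broadly, named a kind only in cells without a restricted marker. A cell with at least 2 molecules of both went to the marker with more molecules, and to neither on a tie. Of 408 tail cells with at least 2 Slc1a3 molecules, 387 had at least 2 of Igfbp5, and 22 came to the Slc1a3 kind; of 4891 such brain cells 173 had both and 4498 came to it. This placed 1490 tail cells and 5953 brain cells. The brain held 4498 Slc1a3 cells (an astroglial glutamate transporter), 937 Dlx1 cells (a homeobox gene of GABA neuron precursors), 281 Gdf10 cells (Bergmann glia), 151 Igfbp5 cells, 51 Tmem212 cells (ciliated ependyma) and 35 Col1a1 cells (fibroblast collagen). The tail held 1142 Igfbp5, 167 Col1a1, 68 Pkd2l1 (cerebrospinal fluid-contacting neurons), 49 Robo3 (commissural neurons), 37 Tmem212 and 22 Slc1a3 cells, 5 Gdf10 cells, which are too few to compare, and no Dlx1 cell. The brain had no Robo3 or Pkd2l1 cell.

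In 9 of the kinds, most or all other markers of the kind were above the level of the library. In brain Dlx1 cells, 10 of 10 further markers were above the level of the library, and in brain Slc1a3 cells 10 of 10 were. Of the tail kinds, Robo3 cells had 9 of 10, Pkd2l1 cells 9 of 10, Tmem212 cells 9 of 10, Col1a1 cells 8 of 8 and Igfbp5 cells 6 of 6. Gdf10 and Tmem212 cells of the brain had 5 of 5 and 10 of 10. The data went against or were mixed for 3 names, which are used here for the marker alone. Tail Slc1a3 cells held 8255 molecules per 1e6 molecules (CPM) of a list of 5 keratins of keratinocytes, 3 of which were above the library's level, against 1369 in the whole library, with 1169 of the astroglial list against 639. Brain Igfbp5 cells had all 10 markers of the Dlx1 list above the library's level (3813 against 2154 CPM) and little of the astroglial list (5740 against 39118). Brain Col1a1 cells carried both the astroglial list (51586 CPM against 39118) and the fibroblast list (3676 against 82.2). All 8 fibroblast markers were above the library's level in them. The macrophage or microglia list was at 0 to 83.4 CPM in all kinds of both libraries. Sox1 itself had 1 molecule in tail Col1a1 cells and 0 in tail Robo3 and tail Slc1a3 cells. It had 102 molecules in tail Igfbp5 cells and 60 in Pkd2l1 cells.

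The kinds differed widely in their summed level of the 10 genes, given as CPM over all cells of the kind. The highest level was in brain Dlx1 cells, at 14986 CPM with a 95% Poisson interval of 14731 to 15245. The lowest was in brain Slc1a3 cells, at 622 CPM (597 to 648). Next to the top came brain Igfbp5 cells (11761 CPM), tail Col1a1 cells (11478) and tail Igfbp5 cells (10311). Tail Tmem212 cells were at 7728 CPM, tail Slc1a3 cells at 6216, brain Tmem212 cells at 3225, tail Robo3 cells at 3156 and tail Pkd2l1 cells at 3113. Brain Col1a1 cells were at 1143 CPM and brain Gdf10 cells at 660. The former is 37 molecules, 24 of them in 1 of the 35 cells, with none in 30 cells, and it ran from 385 to 1618 CPM over the other settings. The intervals of neighbours in this order overlapped for 4 pairs: brain Igfbp5 with tail Col1a1 cells, brain Tmem212 with tail Robo3 cells, tail Robo3 with tail Pkd2l1 cells, and brain Gdf10 with brain Slc1a3 cells. The order also moved with depth. Among cells with at least 1200 molecules, brain Dlx1 cells were at 10402 CPM (10077 to 10734). Tail Igfbp5 cells of that depth were at 11409 CPM and tail Col1a1 cells at 11831 CPM. Intervals here cover counting error only, since cells of 1 library are not replicates, and no test between animals was possible. In these sums more cells with a response and more RNA per cell are not distinguished, and shares of cells are therefore given further on.

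**Figure D1:**
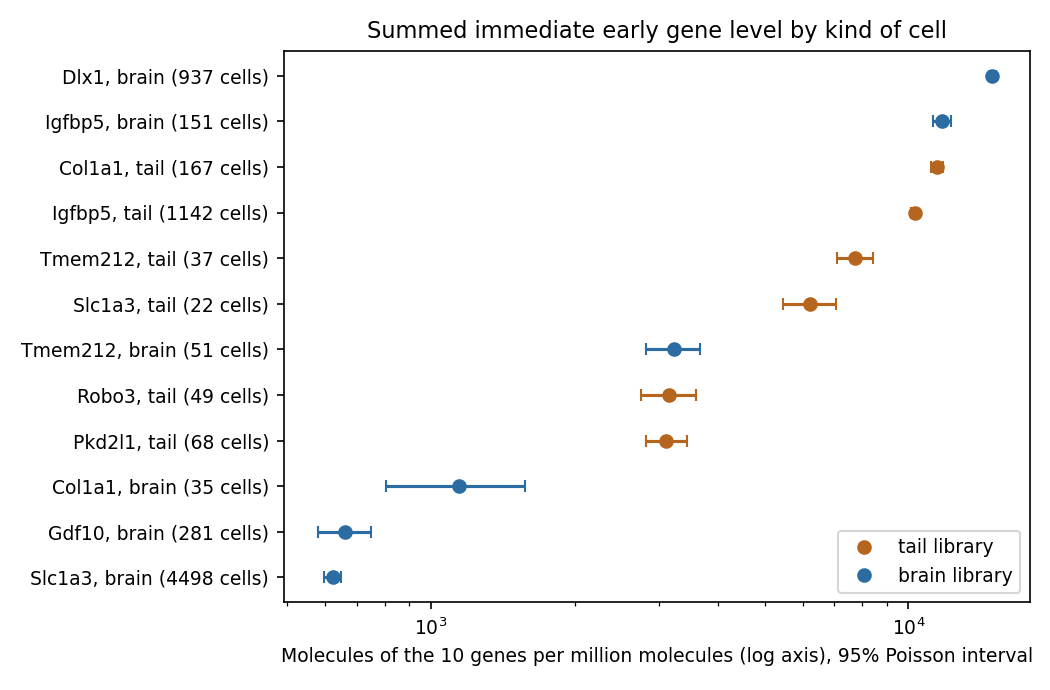
Summed level of the 10 genes in CPM (log axis) for each kind of cell with at least 20 cells, with 95% Poisson intervals that cover counting error only. Brain Dlx1 cells lie at 14986 and brain Slc1a3 cells at 622, and tail kinds lie between 3113 and 11478.

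The question in the brain was how the genes differ between the Slc1a3 cells and the other kinds. Dlx1 cells held 24.1 times the summed level of Slc1a3 cells (23.0 to 25.2, exact conditional interval). A gene was called past 2-fold when it had at least 50 molecules over both groups and its whole interval lay beyond 2-fold. By this rule 8 of the 9 members with enough molecules were higher in Dlx1 cells and none lower, where 21.8% of the 8592 genes tested were higher. The members' median ratio was 22.3, against 1.35 over all genes tested.

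Of the AP-1 genes, Fos was at 4528 CPM in Dlx1 cells and 238 CPM in Slc1a3 cells, a ratio of 19.0 (17.7 to 20.5). Jun was at 4087 and 183 CPM, a ratio of 22.4 (20.6 to 24.4). Fosb was at 1056 and 35.5 CPM, a ratio of 29.7 (24.7 to 36.0). Junb differed less than these, at 97.0 and 12.8 CPM, a ratio of 7.60 (5.25 to 11.1). Atf3 had 32 molecules in Dlx1 cells and 0 in Slc1a3 cells, at least 43.9-fold higher against a floor of 3 molecules, and was too low for the call. Among members with molecules in both kinds the widest ratio was that of Egr1, at 3577 CPM in Dlx1 cells and 65.0 CPM in Slc1a3 cells, 55.1 (48.2 to 63.2). Ier2 followed with 670 and 16.7 CPM, a ratio of 40.2 (30.8 to 53.4).

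The feedback genes split. Dusp1 was at 588 CPM in Dlx1 cells and 26.4 CPM in Slc1a3 cells (ratio 22.3, 17.9 to 28.0), and Btg2 at 300 and 23.0 CPM (13.0, 10.1 to 16.9). Zfp36 was at 47.9 and 21.9 CPM, a ratio of 2.19 (1.47 to 3.22), which did not pass the call. It overlaps a gene model on the other strand, and whether strand was used in counting is not given in the sources used here. In cells under 10% mitochondrial molecules Zfp36 turned, with 0.525 times the level in Dlx1 cells.

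**Figure D2:**
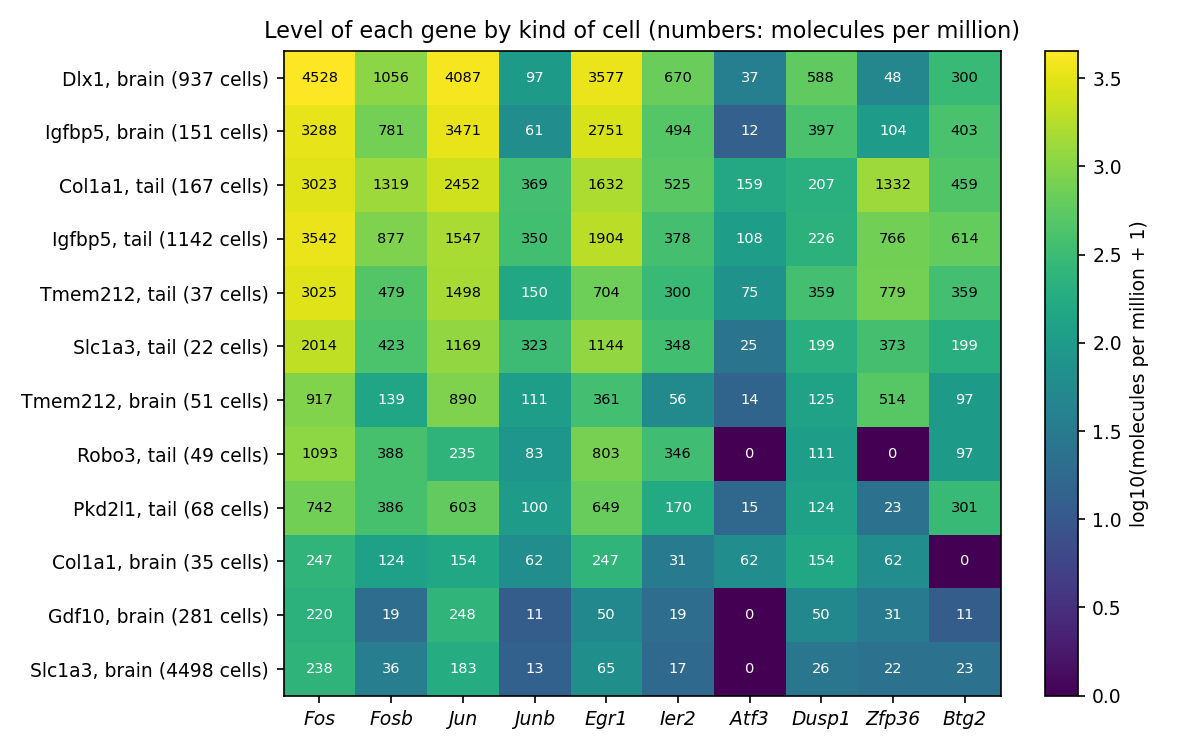
Level of each of the 10 genes in CPM, printed in each square and coloured on a log10 scale, for the kinds of cell ordered by summed level. Zfp36 is at 1332 in tail Col1a1 cells and at 0 in tail Robo3 cells, while Fos, Jun and Egr1 are highest in brain Dlx1 cells, at 4528, 4087 and 3577.

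Shares of cells with a molecule differed too, but at a fixed depth such a share follows in large part from the level. Each cell was thinned to 400 molecules so that depth was equal, which left out 56 Dlx1 cells and 285 Slc1a3 cells with fewer. At least 1 of the 10 genes was then seen in 95.2% of 881 Dlx1 cells (93.6 to 96.5, exact binomial interval) and in 11.2% of 4213 Slc1a3 cells (10.3 to 12.2). At least 3 of the genes were seen in 65.6% and 1.21% of these cells. Fos was seen in 73.9% of Dlx1 cells and 5.79% of Slc1a3 cells, Jun in 73.7% and 4.53%, and Egr1 in 68.0% and 1.47%. Without thinning, Fos was in 87.1% and 8.34%, at medians of 759 and 723 molecules a cell. Atf3 was seen in 0 of 4213 Slc1a3 cells, which allows up to 0.0712% of cells with a molecule at this depth (3 counts) and sets no limit on cells that express it.

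Within the Slc1a3 cells the molecules sat in few cells. The 10% of cells with the most member molecules held 94.6% of them at equal depth, and the top 10% of Dlx1 cells held 24.6%. The means were 0.224 and 6.79 member molecules a cell. A low mean by itself raises the share of the top cells, so these shares do not compare the evenness of the kinds. Where a Slc1a3 cell had a Fos molecule, Jun was seen in 23.4% (18.2 to 29.2), and where it had none, in 3.38% (2.84 to 3.99). For Egr1 the shares were 13.9% and 0.705%. In Dlx1 cells Jun was seen in 78.8% of Fos cells and 59.1% of the rest, and Egr1 in 73.4% and 52.6%.

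Carry-over of free RNA or of Dlx1 cells into Slc1a3 cells was read from the Dlx1 list, which stood in Slc1a3 cells at 1.22% of its level in Dlx1 cells. The 10 members stood there at 4.15%. The 131 Slc1a3 cells with a molecule of that list held 5151 CPM of the members, and the 4367 cells without one held 447 CPM (425 to 470). Against the latter, the ratio of Dlx1 to Slc1a3 cells was 33.5. Tail Igfbp5 cells, in a library with no Dlx1 cell, held 12274 CPM with a molecule of the list and 8162 CPM without. A molecule of the list is thus not particular to Dlx1 cells. Whether the remaining molecules in Slc1a3 cells are free RNA was not tested.

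The mitochondrial share of a cell moved with the level. Brain Slc1a3 cells under 10% mitochondrial molecules held 2531 CPM of the members (477 cells), those at 10 to 20% held 525 CPM and those at 20 to 40% held 172 CPM. The Dlx1 list moved the same way in these cells, at 321, 95.1 and 28.8 CPM, and the astroglial list stayed at 46337 to 57875 CPM. In Dlx1 cells the level was 16186, 12395 and 12256 CPM over these ranges, the last with 12 cells. Median mitochondrial shares were 16.2% in Slc1a3 cells and 8.62% in Dlx1 cells. Among cells under 10%, the ratio of Dlx1 to Slc1a3 cells fell to 6.39 (5.96 to 6.86). Past 2-fold were then 7 members, and 31.0% of all genes in either direction. With a scale set by TMM, which assumes that most genes do not differ, the ratio was 15.9. Depth moved the levels of these kinds in opposite directions. Dlx1 cells under 600 molecules held 22583 CPM and Slc1a3 cells under 600 held 409 CPM. Those with at least 1200 molecules held 10402 and 1021 CPM. The parts of cell quality and of depth in the difference were not tested.

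**Figure D3:**
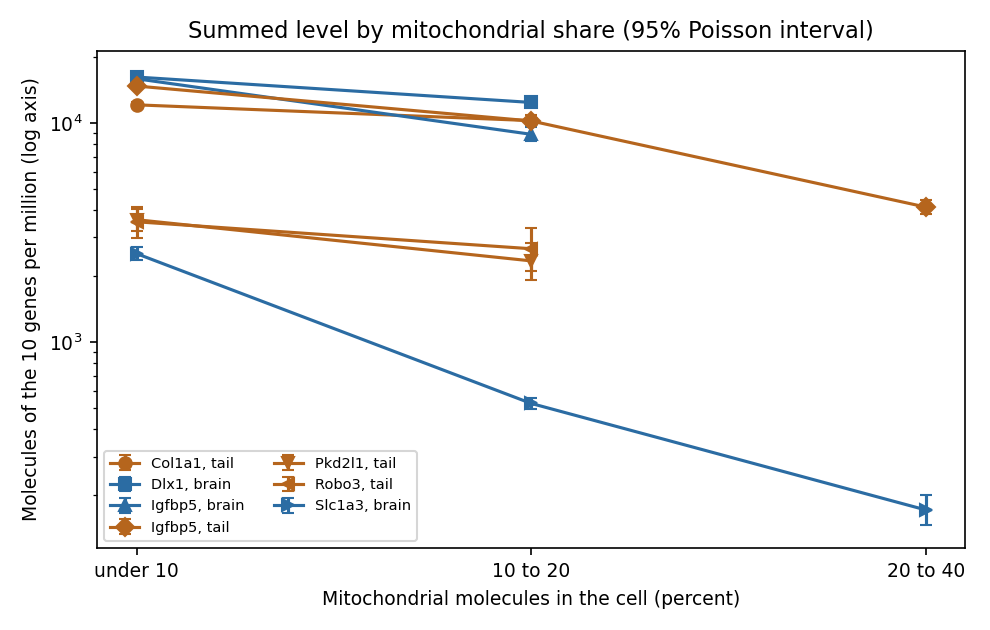
Summed level of the 10 genes in CPM (log axis) in cells of each kind split by the percent of mitochondrial molecules, for bins with at least 20 cells, with 95% Poisson intervals. Brain Slc1a3 cells fall from 2531 to 172 and tail Igfbp5 cells from 14726 to 4130.

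Gdf10 cells of the brain were close to Slc1a3 cells when all cells of each kind were taken. Their summed level was 660 CPM against 622 CPM, a ratio of 1.06 (0.924 to 1.21), and 0 of 9 members passed 2-fold, where 5.61% of 7795 genes did in either direction. Fos was at 220 CPM, Jun at 248 CPM and Egr1 at 50.1 CPM in Gdf10 cells. At equal depth 16.3% of Gdf10 cells (12.1 to 21.2) had at least 1 of the genes. Median mitochondrial shares were unlike, at 6.94% in Gdf10 cells and 16.2% in Slc1a3 cells. Among cells under 10% mitochondrial molecules the ratio was 0.321, with 3 members lower and 8.97% of all genes past 2-fold in either direction.

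Ciliated Tmem212 cells of the brain stood between, at 3225 CPM and 5.18 times the Slc1a3 level (4.51 to 5.94). Past 2-fold were 6 of 9 members, all higher, where 5.61% of the 7580 genes tested were higher. Among members with molecules in both kinds Zfp36 had the widest ratio. It was at 514 CPM, 23.5 times the 21.9 CPM of Slc1a3 cells (15.4 to 35.1), from 37 molecules in 9 of the 51 cells. Of the 232 member molecules of this kind 55 were in 1 cell, and the median cell had 1. Fos was at 917 CPM (ratio 3.85, 2.95 to 4.95) and Egr1 at 361 CPM (5.56, 3.56 to 8.36). At least 1 member was seen in 41.2% of 51 cells (27.6 to 55.8). With every cell thinned to 400 molecules 2 members passed.

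The brain cells with Igfbp5, which carried Dlx1-list RNA, had 18.9 times the Slc1a3 level (17.8 to 20.1), with 9 of 9 members past 2-fold and 12.2% of genes higher. Jun was at 3471 CPM, Fos at 3288 CPM and Egr1 at 2751 CPM. The 109 of them with a Dlx1-list molecule held 13083 CPM and the 42 without held 6875 CPM, so both were well above the Slc1a3 cells. Among cells under 10% mitochondrial molecules the ratio was 6.28.

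The 2035 brain cells in no kind held 9914 CPM. They were of unlike sorts: the 877 with at least 2 molecules of the Dlx1 list held 18921 CPM (18570 to 19278), and the other 1158 held 2758 CPM. Cells with the macrophage or microglia list, 45 in brain and 6 in tail, held 27360 and 21722 CPM, more than any kind, and 3 of them were in a kind. Leaving them out gave 24.3 for the ratio of Dlx1 to Slc1a3 cells.

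In the tail the genes were compared with Igfbp5 cells, the most frequent kind. Robo3 and Pkd2l1 neurons held 0.306 (0.267 to 0.349) and 0.302 (0.273 to 0.333) times the Igfbp5 level, summed over cells. The median unthinned cell had 4 member molecules in Robo3, 5 in Pkd2l1 and 4 in Igfbp5 cells. Median depths were 1481, 1806 and 1176 molecules. No member was seen in 12.2%, 10.3% and 26.4% of these cells. The top 10% of cells held 27.2%, 33.7% and 45.1% of the member molecules. In Robo3 cells 5 of 10 members were past 2-fold and lower, with a background of 4.08% of 5398 genes. In Pkd2l1 cells 5 of 10 were lower, with a background of 6.68% of 5568 genes. No member was higher in either. Across the other settings tried the sum stayed between 0.232 and 0.348 for Robo3 cells and between 0.246 and 0.343 for Pkd2l1 cells, while the number of members past 2-fold ran from 1 to 8 and from 1 to 7.

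Fos was at 1093 CPM in Robo3 cells, 742 CPM in Pkd2l1 cells and 3542 CPM in Igfbp5 cells, ratios of 0.309 (0.244 to 0.385) and 0.209 (0.169 to 0.256). Jun separated the 2 neuron kinds, at 235 CPM in Robo3 cells and 603 CPM in Pkd2l1 cells, with intervals of 137 to 377 and 476 to 752 CPM, against 1547 CPM in Igfbp5 cells. Egr1 was at 803, 649 and 1904 CPM, and only in Pkd2l1 cells did it pass 2-fold (0.341, 0.271 to 0.423). Ier2 was at 346 CPM in Robo3 cells, 0.916 times the Igfbp5 level (0.587 to 1.37).

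Zfp36 was almost missing from these neurons. No molecule was found in the 49 Robo3 cells, which allows up to 41.5 CPM, and 3 molecules (23.2 CPM) in the 68 Pkd2l1 cells, against 766 CPM in Igfbp5 cells. The level in Robo3 cells was at least 18.4-fold lower against a floor of 3 molecules, and in Pkd2l1 cells 0.0303 times (0.00623 to 0.0887). Atf3 had 0 molecules in Robo3 cells and 2 in Pkd2l1 cells, against 108 CPM in Igfbp5 cells. Btg2 was at 96.9 CPM in Robo3 cells (0.158 times, 0.0633 to 0.327) and 301 CPM in Pkd2l1 cells. The red blood cell list was at 2657 CPM in Robo3 cells, 7.72 CPM in Pkd2l1 cells and 1115 CPM in Igfbp5 cells, beside summed members at 0.306 and 0.302 times the Igfbp5 level in the neuron kinds.

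Most of these neurons had a member molecule all the same. At 400 molecules a cell at least 1 of the 10 was seen in 59.2% of Robo3 cells (44.2 to 73.0) and 55.9% of Pkd2l1 cells (43.3 to 67.9), where 62.5% of Igfbp5 cells (59.6 to 65.3) had one. At least 3 of the genes were seen in 8.16%, 8.82% and 34.0%. The kinds differed more in how many members a cell had than in whether it had any. The Col1a1 list was in Robo3 and Pkd2l1 cells at 0.0670% and 0.393% of its level in Col1a1 cells, against 27.5% and 27.1% for the members. This bears on Col1a1 cells as a source only. The Igfbp5 list was at 360 CPM in Robo3 cells and 966 CPM in Pkd2l1 cells, against 6696 CPM in Igfbp5 cells. Carry-over from Igfbp5 cells, the most frequent kind, was not tested.

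**Figure D4:**
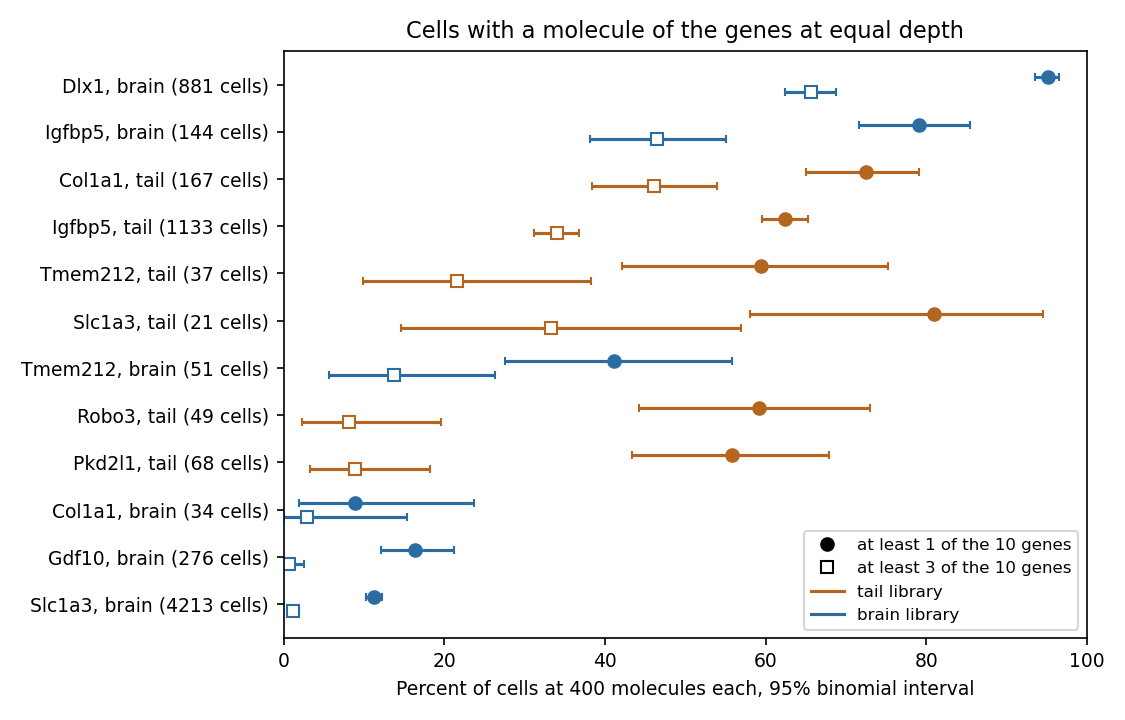
Percent of cells of each kind with at least 1 (filled circles) and at least 3 (open squares) of the 10 genes when each cell is thinned to 400 molecules, with 95% exact binomial intervals. Filled circles run from 8.82% in brain Col1a1 cells to 95.2% in brain Dlx1 cells, and tail Robo3 and Pkd2l1 cells are near tail Igfbp5 cells in filled circles but below them in open squares.

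Tail Igfbp5 cells held 10311 CPM, unevenly over cells. Fos was seen in 46.4% of 1133 thinned cells (43.5 to 49.4), and the members ran together: Egr1 was seen in 62.5% of the Fos cells (58.3 to 66.7) and 13.7% of the rest, Jun in 263 of 526 and 67 of 607 of these cells, Fosb in 38.4% and 3.95%, and Zfp36 in 27.0% and 2.80%. Atf3 was seen in 26 cells with Fos and in 0 of the 607 without. Igfbp5 cells under 10% mitochondrial molecules held 14726 CPM, those at 10 to 20% held 10204 CPM and those at 20 to 40% held 4130 CPM. Cells with at least 1200 molecules held 11409 CPM and those with fewer than 600 held 6316 CPM.

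Tail Col1a1 fibroblasts were near the Igfbp5 cells in sum, at 11478 CPM (ratio 1.11, 1.08 to 1.15). Among cells under 10% mitochondrial molecules this sum was the lower, at 0.821 times. Of 10 members 0 passed 2-fold, where 16.7% of 6110 genes did in either direction. Zfp36 was at 1332 CPM (1.74 times, 1.56 to 1.94), Jun at 2452 CPM (1.59, 1.47 to 1.71) and Fosb at 1319 CPM (1.50, 1.35 to 1.67), while Fos was at 3023 CPM (0.853, 0.799 to 0.910). Zfp36 was seen in 24.0% of thinned Col1a1 cells (17.7 to 31.2) and 14.0% of Igfbp5 cells (12.1 to 16.2).

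Tail Tmem212 cells held 0.749 times the Igfbp5 level (0.685 to 0.818). Egr1 was the only member past 2-fold, at 704 CPM against 1904 CPM (0.370, 0.271 to 0.493), with a background of 0.487% of 5336 genes lower. This count was 0 with 1 molecule of the marker, with kinds that may overlap, with cells thinned to 400 molecules and beyond 4-fold. Dusp1 was at 359 CPM (1.59 times) and Zfp36 at 779 CPM (1.02, 0.755 to 1.34). The 22 tail cells with Slc1a3, rich in keratins, held 0.603 times the Igfbp5 level (0.530 to 0.683), with 0 of 10 members past 2-fold and a background of 1.67%.

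Between the libraries, all kept tail cells together held 8831 CPM and all brain cells 4806 CPM, a ratio of 1.84 (1.81 to 1.87) that fell to 0.910 among cells under 10% mitochondrial molecules. The libraries also differed in their mix of kinds, whose part in the ratio was not tested. Past 2-fold and higher in tail were 5 of 10 members, with a background of 13.2% of 11360 genes. These were Zfp36 (766 and 62.1 CPM, ratio 12.3, 11.1 to 13.8), Atf3 (108 and 10.6 CPM, 10.2, 7.79 to 13.4), Junb (290 and 46.1 CPM, 6.29, 5.50 to 7.21), Btg2 (494 and 106 CPM, 4.67, 4.25 to 5.12) and Fosb (805 and 371 CPM, 2.17, 2.05 to 2.30). Fos was at 2832 and 1475 CPM and Dusp1 at 204 and 190 CPM. Jun was at 1501 and 1306 CPM, and its ratio of 1.15 turned to 0.880 with the TMM scale.

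Within Igfbp5 cells the sum was nearly level between the libraries, at 10311 CPM in tail and 11761 CPM in brain, a ratio of 0.877 (0.836 to 0.920) that turned to 1.05 with the TMM scale and to 1.50 against the 42 brain cells without a Dlx1-list molecule. The members under it did not move alike. Higher in tail were Zfp36 (766 and 104 CPM, ratio 7.38, 4.59 to 12.7), Atf3 (108 and 12.2 CPM, 8.88, 2.42 to 74.0) and Junb (350 and 61.0 CPM, 5.74, 3.10 to 12.1). Jun was lower in tail (1547 and 3471 CPM, 0.446, 0.406 to 0.489). Together 4 of 10 were past 2-fold, with a background of 11.0% of 5641 genes, (7.02% higher and 3.94% lower), and 0 of them against the 42 cells. Fos was at 3542 and 3288 CPM (1.08, 0.986 to 1.18).

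In Tmem212 cells, which had most of the ciliated markers in both libraries, the tail held 7728 CPM and the brain 3225 CPM, a ratio of 2.40 (2.05 to 2.81). The interval does not cover spread between cells. A single cell held 119 of the 516 member molecules in tail and 55 of the 232 in brain. Fos was the 1 of 4 tested members past 2-fold, at 3025 and 917 CPM (3.30, 2.49 to 4.42), with a background of 3.35% of 358 genes. The count was 3 with 1 molecule of the marker, and 0 with kinds that may overlap, with thinned cells and beyond 4-fold. Zfp36 was at 779 and 514 CPM, and its ratio of 1.51 (0.975 to 2.37) stood beside 7.38 in Igfbp5 cells, a difference that was not tested. In Slc1a3 cells 9 of 9 members were higher in tail, with a background of 5.59% of 7493 genes and a ratio of sums of 9.99 (8.73 to 11.4), but the 22 tail cells were those left after most cells with Slc1a3 had gone to the Igfbp5 kind. They held 8255 CPM of the keratin list and 1169 CPM of the astroglial list, against 55900 CPM of the latter in brain Slc1a3 cells. With kinds that may overlap, 408 tail cells and 4891 brain cells with Slc1a3 gave a ratio of 8.99 (8.60 to 9.40), with 9 members past 2-fold and 23.3% of all genes past it in either direction.

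**Figure D5:**
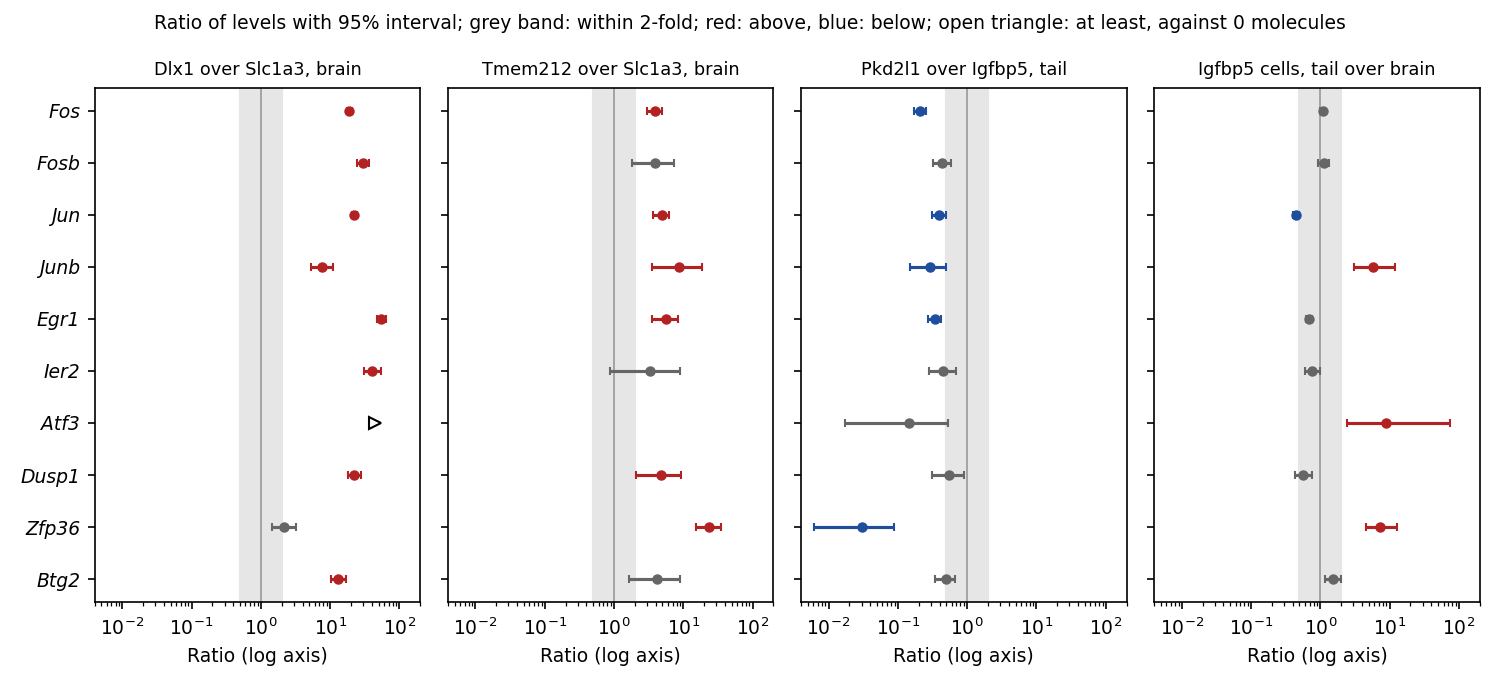
Ratio of levels (log axis) of each of the 10 genes in 4 comparisons, with 95% exact conditional intervals, the grey band marking ratios within 2-fold, red points those wholly above and blue those wholly below it. Zfp36 lies at 2.19, 23.5, 0.0303 and 7.38 in the 4 panels, apart from most of the other genes in each, and the Atf3 triangle in the left panel marks a ratio of at least 43.9.

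The make-up of the member molecules is given for Zfp36, Junb and Atf3 together, a group taken after their levels had been seen, and so as a description. They were 1.21% of member molecules in brain Dlx1 cells (1.03 to 1.41) and 1.50% in brain Igfbp5 cells, but 19.8% in brain Tmem212 cells (14.9 to 25.5), 16.2% in tail Col1a1 cells, 13.0% in tail Tmem212 cells and 11.9% in tail Igfbp5 cells (11.4 to 12.4). In tail Robo3 and Pkd2l1 cells they were 2.63% and 4.47%, and in brain Slc1a3 cells 5.58%. There were 0.902 Jun molecules per Fos molecule in brain Dlx1 cells (0.862 to 0.944), 0.437 in tail Igfbp5 cells (0.415 to 0.459) and 0.215 in tail Robo3 cells (0.119 to 0.367). These are shares between kinds, since capture may differ between genes.

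Further immediate early genes were read from a list of 32 that holds no member. In Dlx1 against Slc1a3 cells 8 of 14 tested were higher and 1 lower (21.8% of all genes were higher), with a median ratio of 3.91 against 1.35 over all genes. Jund, a Jun family member that is often constitutively expressed, was at 4170 and 210 CPM (19.9, 18.4 to 21.5), Klf4 at 191 and 9.99 CPM and Klf6 at 646 and 55.0 CPM, and Cyr61, a matricellular gene, went the other way at 7.99 and 47.7 CPM. In Robo3 cells of the tail 5 of 18 were lower than in Igfbp5 cells and in Pkd2l1 cells 5 of 18 (4.08% and 6.68% of all genes), with Klf4 at 55.4 and 30.9 CPM against 600 CPM, and Cyr61 at 0 molecules in both against 809 CPM. In tail Col1a1 cells 4 of 21 were higher, among them Klf2 (448 and 40.1 CPM), and 2 lower, where 16.7% of all genes passed in either direction. In all tail against all brain cells 17 of 31 were higher and 0 lower, with 13.2% of all genes higher.

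Heat shock genes, a second stress class, were read from a list of 12. In Dlx1 against Slc1a3 cells 5 of 9 tested were higher, where 21.8% of all genes were, with a median ratio of 3.24 against 1.35 over all genes. Their summed level was 13622 CPM in brain Tmem212 cells and 6865 CPM in Dlx1 cells, the reverse of the order of the members. In Robo3 and Pkd2l1 cells 0 of 9 passed 2-fold against Igfbp5 cells, with sums of 7225 and 8358 CPM against 6305 CPM, while the members were at 0.306 and 0.302 times the Igfbp5 level.

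The genes most like the summed members across the 12 groups with at least 20 cells were sought among 7091 genes by Pearson's r of log2(CPM + 20), as a description. Among the nearest that are not members were Hnrnpm (r = 0.936), Ssrp1 (0.923), Rps29 (0.922) and Hmgn2 (0.921). Hnrnpm was at 291 CPM in Dlx1 cells, 198 CPM in tail Igfbp5 cells and 67.2 CPM in brain Slc1a3 cells. Of the members, Fos (0.987), Egr1 (0.963), Fosb (0.957), Ier2 (0.943) and Jun (0.928) were closest to the sum that contains them, and Junb (0.758), Atf3 (0.584) and Zfp36 (0.553) farthest. The 12 groups come from 2 libraries, so they are not independent.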

How the data were processed

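Cells sorted for Sox1-GFP from mouse tail and brain were sequenced as 1 BD Rhapsody whole transcriptome library each. The authors deposited counts of molecules per cell and gene, made by version 1.10.1 of the BD Rhapsody pipeline per the file headers. The counts adjusted for errors in molecular identifiers were used as deposited. Depth was 2817103 molecules in the kept tail cells and 6424466 in the kept brain cells.

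Kept barcodes had a gene number between 200 and 4000 and a mitochondrial share of molecules below 40%. Scrublet (expected rate 0.05) marked 5 tail and 76 brain cells as doublets, and these were kept. Counts were summed by kind and library and scaled to CPM, with exact Poisson, conditional binomial (ratios) and Clopper-Pearson (shares) 95% intervals. Since each group was 1 library, no test was made. The call needed at least 50 molecules over both groups, at least 20 cells in each and an interval wholly beyond 2-fold, and was tested on simulated data. All 10 members are named, with genes past 2-fold from the lists of 32 immediate early and 12 heat shock genes and the 5 nearest genes by correlation, of which 1 is not reported here. The members and lists were chosen with earlier results of these data known. Alternatives covered marker and mitochondrial limits, kinds that overlap, uncorrected counts, doublets, scaling (TMM of edgeR 4.0.16, median ratio), thinning and the call's limits. Python 3.11.15, numpy 2.4.6, scipy 1.17.1, pandas 2.3.3, scanpy 1.11.5 and R 4.3.3 were used.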

Additional observations from a re-analysis of the deposited data

Results flagged for a closer look

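Some contrasts between kinds ran in opposite directions in the 2 libraries. They are given as the ratio in tail divided by the ratio in brain, and the difference was not tested, since each library is 1 sample. Egr1 in Slc1a3 over Tmem212 cells had a ratio of 1.62 (1.06 to 2.49) in tail and 0.180 (0.120 to 0.281) in brain (9.04). The tail Slc1a3 cells in it are the 22 that were rich in keratins. Dusp1 in Igfbp5 over Tmem212 cells had 0.628 (0.415 to 0.995) and 3.17 (1.57 to 7.24), (0.198). The brain Igfbp5 cells in it carried the Dlx1 list. Slc1a3 cells and Igfbp5 cells are thus not of the same sort in the 2 libraries, while Tmem212 cells had most of the ciliated markers in both.

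The others involve the 35 brain cells with Col1a1, which carried both the astroglial and the fibroblast list. In Igfbp5 over Col1a1 cells, Jun had 0.631 in tail and 22.5 in brain (0.0281), Ier2 had 0.719 and 16.0 (0.0450), Fosb had 0.665 and 6.32 (0.105), and the summed members had 0.898 and 10.3 (0.0873). In Tmem212 over Col1a1 cells, Jun had 0.611 and 5.76 (0.106), and the sum had 0.673 and 2.82 (0.239).

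Barcodes left out by the cell filters also held the genes, above what a count of 0 allows. The 505 tail barcodes held 752 CPM of the members, against 8831 CPM in kept cells, and the 4123 brain barcodes held 301 CPM, against 4806 CPM. A count of 0 would have allowed 19.3 and 2.89 CPM.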

How the results depend on the processing

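Of the counts of members past 2-fold under the alternatives, 182 of 210 stayed within 1.5 times the reported count and 28 did not. Of the ratios of the summed members, 92 of 171 stayed inside the interval of the reported ratio, 73 moved outside it and 6 whose interval excluded 1 reversed. Gdf10 over Slc1a3 cells, whose interval held 1, ranged from 0.321 to 1.47.

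With 1 molecule of the marker, members past 2-fold were 0 in tail Tmem212 over Igfbp5 cells, 1 in tail Slc1a3 over Igfbp5 cells and 3 in Tmem212 cells between libraries. With kinds that may overlap, the first and last of these counts were 0, and the sum in Igfbp5 cells, tail over brain, was 1.21. That sum was 1.05 with TMM and 1.03 with the median ratio, where Robo3 over Igfbp5 cells had 8 members past 2-fold and tail Slc1a3 over Igfbp5 cells 1. Jun in all kept cells, tail over brain, was 0.981 under 20% mitochondrial molecules, 0.880 with TMM, 0.891 with the median ratio and 0.957 thinned. With every cell thinned to 400 molecules the counts were 2 in brain Tmem212 over Slc1a3 cells, 1 in Robo3 (where Dusp1 was at 1.05), 3 in Pkd2l1 and 0 in tail Tmem212 cells over Igfbp5 cells, and between libraries 4 in Slc1a3, 2 in Igfbp5 and 0 in Tmem212 cells. With at least 200 molecules they were 3 in brain Tmem212 over Slc1a3 cells, 4 in brain Igfbp5 over Slc1a3 cells and 3 in Slc1a3 cells between libraries. Beyond 4-fold they were 1 in brain Tmem212 over Slc1a3 cells, 2, 1 and 0 in Robo3, Pkd2l1 and Tmem212 over Igfbp5 cells, and 1 and 0 in Igfbp5 and Tmem212 cells between libraries.

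Further alternatives were chosen after seeing the data; leaving out keratinocyte-list cells was one of them. Under 10% mitochondrial molecules, Zfp36 in Dlx1 over Slc1a3 cells was 0.525, and Gdf10 over Slc1a3 cells had 3 members lower, with Jun at 0.416 and Dusp1 at 0.767. The sum in tail Col1a1 over Igfbp5 cells was 0.821. In all kept cells, tail over brain, 3 members passed and the ratio was 0.910 for the sum, 0.914 for Fos, 0.589 for Jun, 0.723 for Egr1 and 0.907 for Ier2. Against brain Igfbp5 cells without a Dlx1-list molecule, 0 members passed and the tail over brain ratio was 1.50 for the sum, 1.55 for Egr1, 1.88 for Ier2 and 7.88 for Dusp1. Ratios against 0 molecules (Atf3 in 4 comparisons among them) gave no value. The causes were not tested. TMM moved log2 ratios by -0.60 in Dlx1 over Slc1a3 cells and by -0.39 in all kept cells. No paired analysis was possible because each group was 1 library.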
